A study of Penicillium oxalicum with 9 samples.

Results

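Transcript levels of 5 genes for amino acid breakdown were followed in 9 RNA sequencing libraries of the mould Penicillium oxalicum, known for secreting enzymes that digest plant cell walls. The genes were taken by locus number from the 9786 in the deposited table. They are PDE_08904 (4-hydroxyphenylpyruvate dioxygenase), PDE_08908 (maleylacetoacetate isomerase), PDE_04228 (3-hydroxyphenylacetate 6-hydroxylase), PDE_05907 (indoleamine 2,3-dioxygenase) and PDE_03805 (a branched-chain amino acid aminotransferase). Their enzyme names come from KEGG Orthology entries in that table, since its descriptions mostly read hypothetical protein. The members were picked with their levels in these libraries known, so their values and fold changes are given as a description and without p-values. All 5 of the 5 members passed the filter on low counts.

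The libraries came from mycelia of 3 deletion strains with 3 biological replicates each: dPoflbC (PoflbC deleted), dPoClrC (PoClrC deleted) and dCA (CA deleted, an abbreviation that the labels do not spell out). All groups shared one culture scheme, at 30 °C with shaking at 200 rpm in Vogel's medium: 2% glucose for 22 h, no carbon source for 2 h and 2% cellulose for 4 h. No unmutated strain was analysed here, so each comparison sets one deletion against another, and the labels do not say how many independent transformants stand behind a strain. The annotation names neither flbC nor clrC, so the deletions themselves could not be checked. In such bulk samples, fewer cells of a type and less RNA per cell cannot be told apart.

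Phenylalanine and tyrosine are broken down through 4-hydroxyphenylpyruvate to homogentisate, whose aromatic ring is then opened, and the route ends in fumarate and acetoacetate. In Aspergillus nidulans, phenylacetate joins the same route at homogentisate after hydroxylation of its ring. Tryptophan is opened by indoleamine dioxygenase and leads to kynurenine. Branched-chain aminotransferases move the amino group between leucine, isoleucine or valine and their keto acids, a reversible step that serves both breakdown and synthesis.

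Levels are given as RPKM (reads per kilobase of gene length per M reads counted in genes), and libraries held 6.49 to 7.76 M such reads (M for units of 1e+06). Fold changes come from edgeR's quasi-likelihood fit to the read counts, which also corrects for a difference in library composition between strains. That scaling lowers dPoflbC and raises dCA relative to RPKM, so a fitted log2 fold change of dPoflbC against dCA lies below the ratio of RPKM means. Replicate 2 of dCA stood apart from its companions: its 10 most abundant genes held 15.7% of its reads, against 5.5 to 11.2% in the other 8 libraries, and its TMM scaling factor was 0.680. Where leaving it out ended a call or moved a value by over 1.5 times, both values are given.

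All 5 genes had their lowest mean level in dPoClrC, though for PDE_03805 the libraries overlapped those of dCA. The members were picked with their levels known, and the share of all genes lowest in dPoClrC was not counted. The order of the other 2 strains differed from gene to gene. PDE_08904 and PDE_03805 were far above dCA in dPoflbC, and PDE_05907 had its highest mean in dPoflbC but reached a similar level in 1 dCA library. PDE_04228 and PDE_08908 had their highest mean in dCA, with libraries that overlapped those of dPoflbC. For PDE_08908 that rested on dCA replicate 2. The mean RPKM of dCA replicates 1 and 3 was 47.4, below the dPoflbC mean of 80.3.

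**Figure D1:**
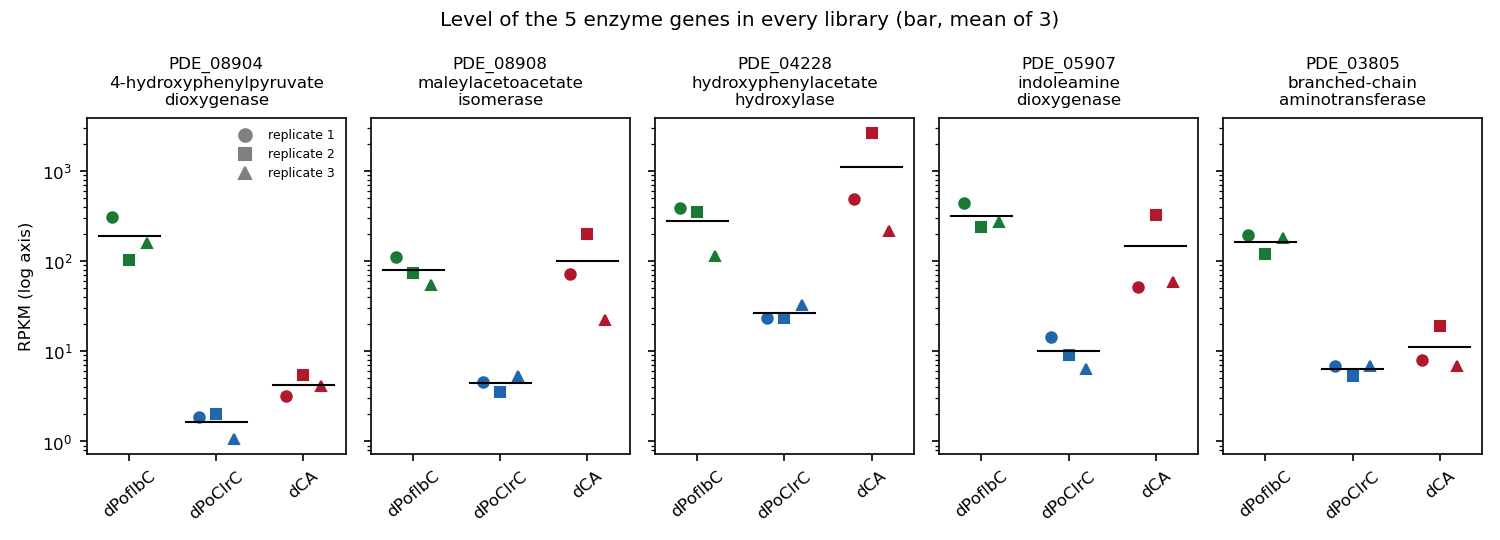
RPKM of the 5 genes in each of the 9 libraries, on a log axis; points are libraries with their replicate number given by the marker, grouped by strain. The dPoClrC libraries lie lowest for PDE_08904, PDE_08908, PDE_04228 and PDE_05907, and dCA replicate 2 lies above the other dCA libraries for all 5 genes.

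PDE_08904 encodes the enzyme that turns 4-hydroxyphenylpyruvate, the keto acid of tyrosine, into homogentisate. Its RPKM was 310.1, 104 and 159 in dPoflbC replicates 1, 2 and 3, 1.85, 2.02 and 1.07 in dPoClrC, and 3.19, 5.49 and 4.10 in dCA. The 3 strains did not overlap: every dPoflbC library was far above every other library, and every dCA library was above every dPoClrC library. The means were 191 ± 107 in dPoflbC, 1.65 ± 0.502 in dPoClrC and 4.26 ± 1.16 in dCA (SD, n = 3 each). The log2 fold change was 4.86 ± 0.44 (SE) for dPoflbC against dCA, 6.56 ± 0.50 for dPoflbC against dPoClrC and -1.70 ± 0.62 for dPoClrC against dCA. The lowest value of the first under any alternative was 4.35, without dPoflbC replicate 1. The gene rests on few reads outside dPoflbC, from 9 to 49 per library.

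PDE_08908 encodes the isomerase that turns maleylacetoacetate, the ring-opened product of homogentisate, into fumarylacetoacetate. Its RPKM was 112, 74.4 and 54.7 in dPoflbC, 4.58, 3.57 and 5.28 in dPoClrC, and 72.6, 202 and 22.2 in dCA. The dPoClrC libraries were below all others, while dPoflbC and dCA overlapped. Means were 80.3 ± 28.9, 4.48 ± 0.860 and 98.8 ± 92.6 in dPoflbC, dPoClrC and dCA (SD, n = 3 each). The log2 fold change was 3.88 ± 0.86 (SE) for dPoflbC against dPoClrC and -4.90 ± 0.86 for dPoClrC against dCA, the latter -3.54 without dCA replicate 2. For dPoflbC against dCA it was -1.02 ± 0.65 and turned to 0.34 without that library, so no order of these 2 strains could be read.

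PDE_04228 encodes the hydroxylase that, in A. nidulans, makes homogentisate from 3-hydroxyphenylacetate, and it is the only gene in the table with that KEGG entry. Its RPKM was 383, 347 and 114 in dPoflbC, 23.4, 23.4 and 32.6 in dPoClrC, and 488, 2630.4 and 216 in dCA. The 3 dPoClrC libraries lay together below the others. The dCA libraries spanned a 12.2-fold range, wider than any other strain in any of the 5 genes, and overlapped those of dPoflbC. Means were 281 ± 146, 26.5 ± 5.29 and 1111 ± 1323 in dPoflbC, dPoClrC and dCA (SD, n = 3 each). The log2 fold change was -5.88 ± 1.01 (SE) for dPoClrC against dCA and -3.89 without dCA replicate 2. It was 3.12 ± 0.90 for dPoflbC against dPoClrC. For dPoflbC against dCA it was -2.76 ± 0.87, and only -0.76 without dCA replicate 2.

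PDE_05907 encodes an indoleamine dioxygenase, which opens the indole ring of tryptophan. Its RPKM was 438, 239.9 and 274 in dPoflbC, 14.5, 9.02 and 6.37 in dPoClrC, and 51.7, 326 and 58.2 in dCA. Again the dPoClrC libraries were the lowest 3, and dCA replicate 2 alone reached the dPoflbC range. Means were 317 ± 106, 9.97 ± 4.17 and 145 ± 156 in dPoflbC, dPoClrC and dCA (SD, n = 3 each). The log2 fold change was 4.72 ± 0.83 (SE) for dPoflbC against dPoClrC and -4.35 ± 0.81 for dPoClrC against dCA, with -2.64 for the latter without dCA replicate 2. For dPoflbC against dCA it was 0.37 ± 0.69 with all libraries, 2.08 without dCA replicate 2 and -0.07 without dCA replicate 1.

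PDE_03805 is 1 of 5 genes annotated as a branched-chain amino acid aminotransferase. Its RPKM was 193, 119 and 181 in dPoflbC, 6.84, 5.27 and 6.87 in dPoClrC, and 8.0, 18.9 and 6.83 in dCA. All dPoflbC libraries were well above the rest, and dPoClrC and dCA overlapped. Means were 164 ± 39.7, 6.33 ± 0.913 and 11.2 ± 6.66 in dPoflbC, dPoClrC and dCA (SD, n = 3 each). The log2 fold change was 3.21 ± 0.40 (SE) for dPoflbC against dCA, 4.42 ± 0.44 for dPoflbC against dPoClrC and -1.21 ± 0.46 for dPoClrC against dCA. Without dCA replicate 2 the first was 4.03 and the last -0.40.

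The members therefore differed in how far dCA replicate 2 departed from the other dCA libraries. Its RPKM over the mean of dCA replicates 1 and 3 was 7.48 for PDE_04228, 5.93 for PDE_05907, 4.25 for PDE_08908, 2.55 for PDE_03805 and 1.5 for PDE_08904. The median of that ratio over all genes tested was 0.76, so all 5 members lay above it. PDE_09984, annotated as phenylacetate 2-hydroxylase which starts the phenylacetate branch, had a ratio of 1.30. What sets that library apart was not tested. In dPoflbC, replicate 3 was lowest for PDE_08908 and PDE_04228, and replicate 2 was lowest for PDE_08904, PDE_05907 and PDE_03805.

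The members PDE_08904 and PDE_08908 carry neighbouring locus numbers, with the remaining enzymes of the homogentisate route between them: PDE_08906 is homogentisate 1,2-dioxygenase, which opens the ring, and PDE_08907 is fumarylacetoacetase, which makes the last cut. Locus numbers are an order of names here, since no positions were used. The levels along this run did not follow one pattern. PDE_08906 had an RPKM of 475, 367 and 185 in dPoflbC, 106, 91.2 and 108 in dPoClrC, and 609, 2151 and 368 in dCA. PDE_08907 had 785, 622 and 285 in dPoflbC, 131, 106 and 141 in dPoClrC, and 1021, 3333 and 496 in dCA. Both genes were lowest in dPoClrC without overlap, as PDE_08908 was, but they stayed between 91.2 and 141 RPKM there, while PDE_08908 was under 6 and PDE_08904 under 3.

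Both genes fell in dPoClrC against dCA, with a log2 fold change of -3.82 ± 0.70 (SE; adjusted p = 0.00245) for PDE_08906 and -4.14 ± 0.74 (adjusted p = 0.00213) for PDE_08907 in edgeR's quasi-likelihood test. Without dCA replicate 2 these were -2.43 and -2.75, and both were still called. They also fell in dPoflbC against dCA, at -2.35 ± 0.66 (adjusted p = 0.0104) and -2.26 ± 0.68 (adjusted p = 0.0151). Those calls in dPoflbC were lost without dCA replicate 2, at log2 fold changes of -0.95 and -0.86, and with limma on RPKM, the latter gene's also without dPoflbC replicate 3, and the libraries overlapped. In dPoflbC against dPoClrC PDE_08907 rose by 1.88 ± 0.67 (adjusted p = 0.0353), a call lost when any 1 of the dPoClrC libraries or dPoflbC replicate 1 or 2 was left out, and PDE_08906 did not pass (1.47 ± 0.64, adjusted p = 0.0722).

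PDE_08904 thus differed from the enzyme genes PDE_08906 to PDE_08908. In RPKM, PDE_08906 was 2.07 ± 1.27 times PDE_08904 in dPoflbC, 67.5 ± 28.9 times in dPoClrC and 224 ± 154 times in dCA (SD, n = 3 each). By contrast, the ratio of PDE_08906 to PDE_08907 differed far less: 0.615 ± 0.0305 in dPoflbC, 0.809 ± 0.0465 in dPoClrC and 0.661 ± 0.0736 in dCA. That ratio was highest in dPoClrC, without overlap with dPoflbC or dCA. PDE_08907 was 6.86 ± 1.58 times PDE_08908 in dPoflbC, 28.4 ± 1.61 times in dPoClrC and 17.6 ± 4.26 times in dCA. Relative to fumarylacetoacetase, the isomerase transcript was thus most abundant in dPoflbC, with no overlap between strains.

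Next to PDE_08904, the gene PDE_08905, which has no annotation, had a like profile. Its RPKM averaged 48.3 ± 25.6 in dPoflbC, 1.72 ± 0.235 in dPoClrC and 5.24 ± 3.54 in dCA (SD, n = 3 each). It rose by 2.55 ± 0.50 on the log2 scale in dPoflbC against dCA (edgeR adjusted p = 0.00142; 3.46 without dCA replicate 2) and by 4.51 ± 0.60 against dPoClrC (adjusted p = 1.30e-04). On the other side, PDE_08903 averaged between 21.1 and 23.2 RPKM in the 3 strains. After scaling, its log2 fold change in dPoflbC against dCA was -0.71 ± 0.11 (SE), short of the fold threshold. PDE_08912, also without annotation, had the opposite order, at 36.5 ± 1.12 in dPoflbC, 410.3 ± 43.7 in dPoClrC and 136 ± 60.4 in dCA.

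**Figure D2:**
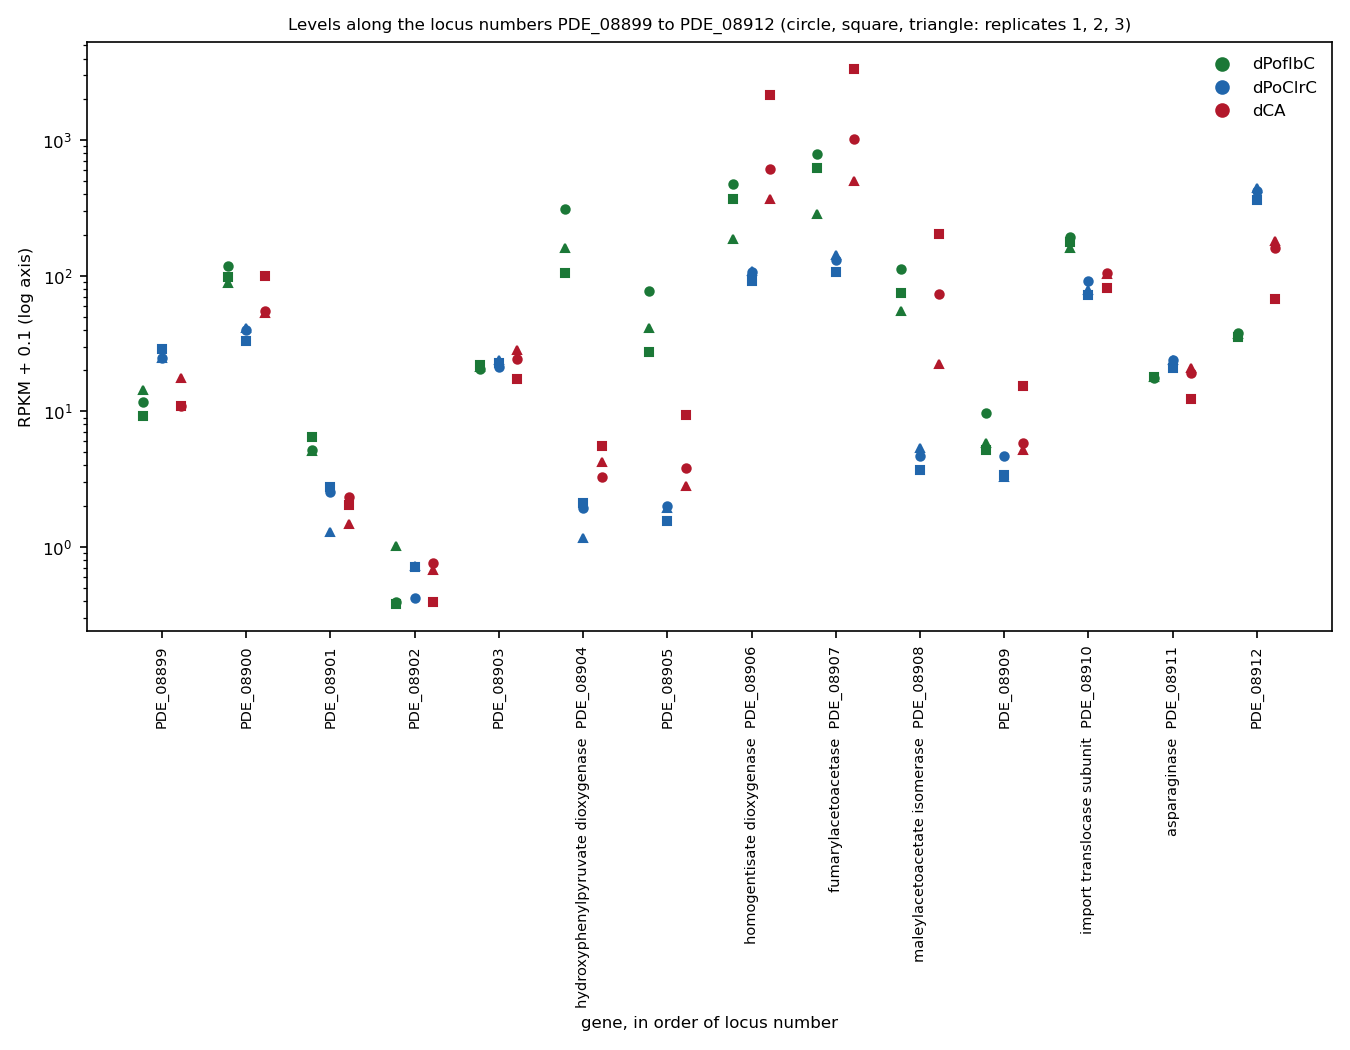
RPKM + 0.1 (log axis) of the genes PDE_08899 to PDE_08912 in order of locus number, with 1 point per library, colours for strains and markers for replicates. PDE_08904 and PDE_08905 are highest in dPoflbC without overlap, whereas PDE_08906, PDE_08907 and PDE_08908 are high in both dPoflbC and dCA and lowest in dPoClrC.

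Across the genes within 5 locus numbers of any member, 40 of 42 could be tested. In dPoflbC against dCA 4 rose and 8 fell, where 27.1% of all genes tested were called, 11.4% rising and 15.8% falling. In dPoClrC against dCA 2 rose and 8 fell, against 13.0% of all genes called, 5.69% rising and 7.35% falling, and in dPoflbC against dPoClrC 5 rose and 4 fell, against 22.6%, 9.05% rising and 13.6% falling. Without scaling the 3 splits were 8 risen and 6 fallen, 4 and 6, and 9 and 4. For the other 3 members, examples of annotated or called neighbours follow. PDE_05908 (PET117, a factor of respiratory chain assembly in yeast), beside PDE_05907, averaged 104, 56.9 and 51.6 RPKM in dPoflbC, dPoClrC and dCA. PDE_04229 (a mitochondrial 2-oxodicarboxylate carrier), beside PDE_04228, averaged 170.2, 169.8 and 160.3. After scaling, the log2 fold change in dPoflbC against dCA was 0.43 ± 0.14 (SE) for PDE_05908 and -0.55 ± 0.25 for PDE_04229, neither called. Near PDE_04228, 2 genes without annotation fell against dCA in both dPoflbC and dPoClrC: PDE_04225 (-2.96 and -2.30) and PDE_04226 (-1.44 and -1.57). PDE_04226 averaged 66.2, 49.9 and 115 RPKM in dPoflbC, dPoClrC and dCA, the order of PDE_04228. In dPoflbC against dCA PDE_04224 also fell (-1.48) and PDE_04227 rose (1.18). The calls of PDE_04224 and PDE_04226 there ended without scaling. PDE_03807, for the small-subunit ribosomal protein S14e, was the annotated neighbour of PDE_03805 that rose against dCA in both strains, by 2.03 ± 0.23 in dPoflbC (edgeR adjusted p = 4.11e-05) and by 1.27 ± 0.23 in dPoClrC (adjusted p = 0.00227).

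For 3 members, further genes of the table carry the same KEGG entry, and the member was not the most abundant of them in the mean of any strain. The table's header calls the counted reads unique, and how alike the copies are in sequence was not examined. How reads from alike stretches of the copies were counted could therefore not be judged.

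The entry of 4-hydroxyphenylpyruvate dioxygenase covers 4 genes. PDE_09761 was the most abundant, at 1026, 906 and 909 RPKM in dPoflbC, 519, 662 and 617 in dPoClrC, and 5020.0, 3532 and 5191 in dCA. Unlike PDE_08904, it was highest in dCA without overlap. It fell by 2.85 ± 0.18 in dPoflbC against dCA (log2, SE; edgeR adjusted p = 8.05e-07) and by 3.23 ± 0.18 in dPoClrC against dCA (adjusted p = 2.89e-06), and it was not called between dPoflbC and dPoClrC (0.38 ± 0.17, adjusted p = 0.0755). PDE_08904 supplied 16.1 ± 6.53% of the summed RPKM of the 4 genes in dPoflbC, 0.276 ± 0.0928% in dPoClrC and 0.0992 ± 0.0490% in dCA (SD, n = 3 each). The sum itself averaged 1141 ± 173, 605 ± 73.7 and 4589 ± 911 RPKM, so transcripts under this entry were most abundant in dCA although the member was highest in dPoflbC. PDE_06628 and PDE_07246 were low throughout, under 4 RPKM in every library. PDE_06628 fell in dPoflbC against dPoClrC (-1.47 ± 0.54, adjusted p = 0.0383), a call that 8 of the alternatives ended.

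The entry of indoleamine dioxygenase covers 3 genes. PDE_02454 averaged 387 ± 53.1 RPKM in dPoflbC, 532 ± 23.9 in dPoClrC and 1139 ± 71.9 in dCA, and so was lowest in the strain where PDE_05907 had its highest mean. It fell by 2.16 ± 0.17 in dPoflbC against dCA (edgeR adjusted p = 2.83e-06) and by 1.42 ± 0.16 in dPoClrC against dCA (adjusted p = 1.94e-04). PDE_02071 averaged 56.6, 100.5 and 72.2 RPKM in dPoflbC, dPoClrC and dCA and fell in dPoflbC against dPoClrC (-1.10 ± 0.13, adjusted p = 5.78e-05), a call that ended without scaling (-0.83) and with either use of limma. PDE_05907 made up 41.1 ± 5.63% of the 3 genes' summed RPKM in dPoflbC, 1.53 ± 0.565% in dPoClrC and 9.98 ± 9.73% in dCA. In dCA that share ran from 3.88 to 21.2%.

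The entry of branched-chain amino acid aminotransferase covers 5 genes. PDE_01215 was the most abundant, at 4177 ± 468 RPKM in dPoflbC, 439 ± 192 in dPoClrC and 2448 ± 617 in dCA. It fell by 2.84 ± 0.37 in dPoClrC against dCA (edgeR adjusted p = 4.17e-04) and rose by 2.98 ± 0.37 in dPoflbC against dPoClrC (adjusted p = 8.83e-05). PDE_09053 had the order of PDE_03805, with 651 ± 158, 50.9 ± 8.14 and 139 ± 93.3 RPKM, and rose by 1.53 ± 0.47 in dPoflbC against dCA (adjusted p = 0.0165). Without dCA replicate 2 that value was 2.48, and without dCA replicate 3 or dPoflbC replicate 3 the call was lost. PDE_04465 did not share it, at 139, 179 and 102 RPKM on average, and PDE_04024, which was too low to test, stayed under 2 RPKM. PDE_03805 gave 3.18 ± 0.617% of the summed RPKM in dPoflbC, 0.991 ± 0.347% in dPoClrC and 0.409 ± 0.174% in dCA.

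**Figure D3:**
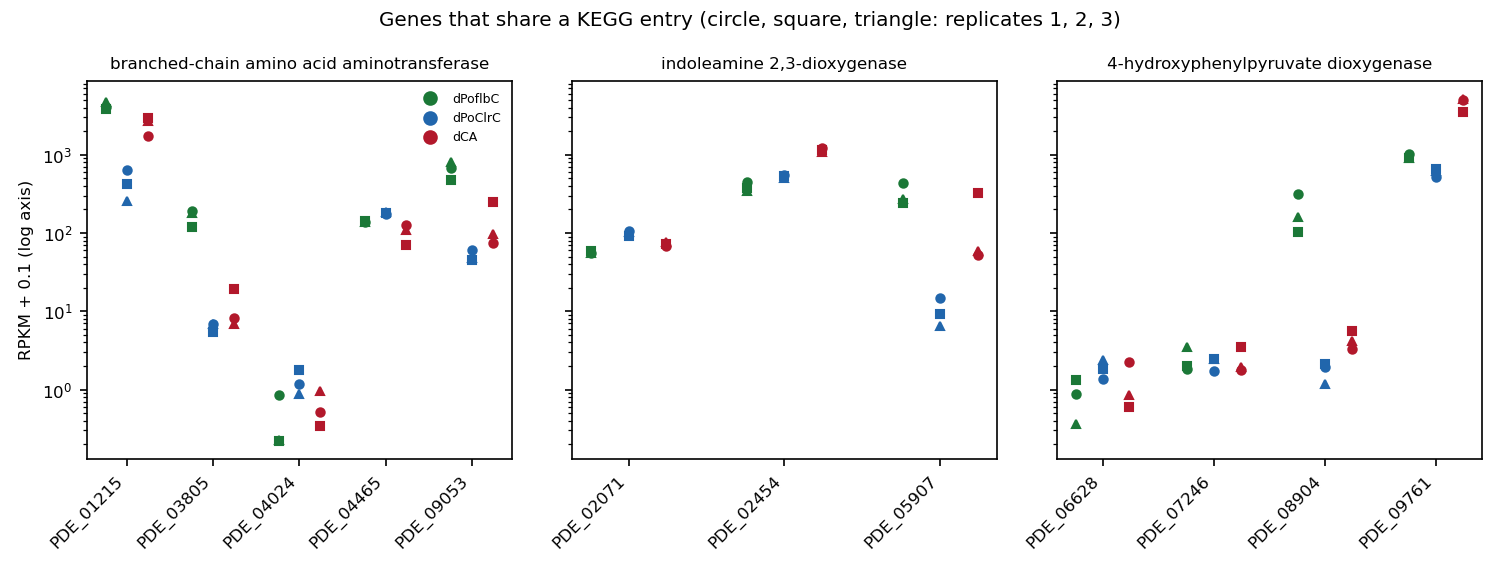
RPKM (log axis) per library of the genes that share a KEGG entry with PDE_08904, PDE_05907 or PDE_03805, by strain. PDE_09761 and PDE_02454 are highest in dCA, where PDE_08904 and, outside replicate 2, PDE_05907 lie below their level in dPoflbC.

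The search for other genes of amino acid breakdown by enzyme name gave 61 genes besides the members, of which 59 were tested. In dPoflbC against dCA 2 of them rose and 9 fell, with a median log2 fold change of -0.42 where the median of all genes was -0.07 and 27.1% of all genes were called. Without dCA replicate 2 the split was 7 risen and 5 fallen, with a median of -0.17, where 971 of all 8764 genes tested rose and 1269 fell. Without dPoflbC replicate 3 all 6 calls were falls, and without scaling the split was 5 and 4. In dPoClrC against dCA 1 rose and 22 fell, with a median of -0.79 against 0.00 for all genes. The fallen were 22 of 59, where 7.35% of all genes tested fell. Without dCA replicate 2 they were 16 of 59, with a median of -0.32, where 507 of all 8764 genes tested fell. In dPoflbC against dPoClrC 17 rose and 5 fell, with a median of 0.12 against 0.01 for all genes, of which 9.05% rose, and without scaling 20 rose and 2 fell. The number called in that comparison ran from 16 to 23 when 1 library was left out. These comparisons share libraries, so the members and the list are read in each by itself.

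Of the 9 other genes for phenylalanine and tyrosine breakdown, 4 fell in dPoflbC against dCA and 5 fell in dPoClrC against dCA by edgeR's test, and 2 and 4 without dCA replicate 2. In dPoflbC against dPoClrC 2 rose and 1 fell. Of all genes tested, 15.8% fell in dPoflbC against dCA and 7.35% fell in dPoClrC against dCA. In dPoflbC against dPoClrC 9.05% of all genes rose and 13.6% fell. Among the 9 genes was PDE_09759, an aromatic amino acid aminotransferase, which makes the substrate of 4-hydroxyphenylpyruvate dioxygenase. It averaged 394 ± 28.5 RPKM in dPoflbC, 94.2 ± 6.94 in dPoClrC and 685 ± 73.7 in dCA, an order of strains without overlap. It fell by 3.18 ± 0.15 in dPoClrC against dCA (adjusted p = 1.20e-06) and by 1.39 ± 0.14 in dPoflbC against dCA (adjusted p = 1.49e-05). The latter call ended without scaling and with limma on RPKM (-0.79). A second gene of that name, PDE_08638, fell in dPoClrC against dCA (-1.66 ± 0.38, adjusted p = 0.00762), but passed the fold threshold no longer without dCA replicate 2 (-0.91). PDE_09984, the phenylacetate 2-hydroxylase, averaged 101, 89.3 and 77.7 RPKM and was called in none of the 3 comparisons, and neither was PDE_09882, a second fumarylacetoacetase gene, at 31.2, 25.5 and 27.2.

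Of the 7 other genes for tryptophan breakdown, 1 fell in dPoflbC against dCA and 2 fell in dPoClrC against dCA, while 1 rose and 1 fell in dPoflbC against dPoClrC. Of all genes tested, 15.8%, 7.35% and 13.6% fell in these 3 comparisons, and 9.05% rose in the last. Counts this small are not read as a result about tryptophan breakdown. Kynureninase PDE_02455, which cleaves kynurenine, averaged 694 ± 88.8 RPKM in dPoflbC, 257 ± 48.5 in dPoClrC and 584 ± 52.8 in dCA. It fell by 1.53 ± 0.21 in dPoClrC against dCA (edgeR adjusted p = 5.37e-04) and rose by 1.16 ± 0.21 in dPoflbC against dPoClrC (adjusted p = 8.65e-04). The second kynureninase PDE_03800, kynurenine 3-monooxygenase PDE_05424, hydroxyanthranilate dioxygenase PDE_06295 and kynurenine aminotransferase PDE_08430 were called in none of the 3 comparisons. Their fitted log2 fold changes lay between -0.58 and 0.32.

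Of the other genes for branched-chain amino acid breakdown, 16 of 17 were tested, and 8 fell and 1 rose in dPoClrC against dCA. In dPoflbC against dPoClrC 8 rose and 1 fell, and in dPoflbC against dCA 1 rose and 2 fell. Without dCA replicate 2 the last became 4 risen and 1 fallen, and 5 fell in dPoClrC against dCA. Of all genes tested, 7.35% fell and 5.69% rose in dPoClrC against dCA. In dPoflbC against dPoClrC 9.05% rose and 13.6% fell, and in dPoflbC against dCA 11.4% rose and 15.8% fell. The branched-chain keto acid dehydrogenase, which takes the product of the aminotransferase, was among the genes that fell in dPoClrC against dCA. Its E1 alpha subunit PDE_08806 had an RPKM of 271, 159 and 182 in dPoflbC, 17.7, 14.1 and 13.0 in dPoClrC, and 44.5, 258 and 34.6 in dCA. As with PDE_05907, the dPoClrC libraries were lowest and dCA replicate 2 alone reached the dPoflbC range. It fell by 3.40 ± 0.78 in dPoClrC against dCA (edgeR adjusted p = 0.00784), with -1.58 without dCA replicate 2. The E1 beta subunit PDE_09047 fell by 2.59 ± 0.58 (adjusted p = 0.00693; -1.33 without that library), and the E2 subunit PDE_08539 fell by 2.94 ± 0.78 (adjusted p = 0.0156; -1.06 without it), the last call ending without dPoClrC replicate 2 or 3.

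Isovaleryl-CoA dehydrogenase PDE_09757, of leucine breakdown, averaged 303 ± 74.1 RPKM in dPoflbC, 48.7 ± 6.31 in dPoClrC and 208 ± 186 in dCA, and fell by 2.54 ± 0.60 in dPoClrC against dCA (edgeR adjusted p = 0.00894; -1.21 without dCA replicate 2). The 2 subunits of methylcrotonyl-CoA carboxylase, PDE_09756 and PDE_09769, fell by 2.10 ± 0.55 (adjusted p = 0.0148) and by 1.65 ± 0.47 (adjusted p = 0.0201), and these calls, like that of PDE_09053 (-1.88 ± 0.48, adjusted p = 0.0126), were lost without dCA replicate 2. The log2 fold changes were then -0.89, -0.68 and -0.94, short of the fold threshold, with adjusted p still under 0.05. The calls of PDE_09756 and PDE_09769 were also lost without dPoClrC replicate 2 or 3, and that of PDE_09053 without dPoClrC replicate 2. That of PDE_09769 ended as well with the replicate block and with limma after quantile normalization. PDE_07269, a 3-hydroxyisobutyrate dehydrogenase of valine breakdown, went the other way and rose by 1.16 ± 0.20 in dPoClrC against dCA (adjusted p = 0.00201). In dPoflbC against dCA, PDE_04619 (hydroxymethylglutaryl-CoA lyase) fell by 1.60 ± 0.29 (adjusted p = 9.37e-04), a call that ended without scaling (-0.97) and with limma on RPKM (-0.86). PDE_08630 (methylmalonate-semialdehyde dehydrogenase) also passed there (-1.33 ± 0.52, adjusted p = 0.0483), but 14 of the alternatives ended its call, and without dCA replicate 2 the value was -0.12. The remaining PDE_03239, PDE_04778, PDE_07394 and PDE_07996 were called in none of the 3 comparisons.

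**Figure D4:**
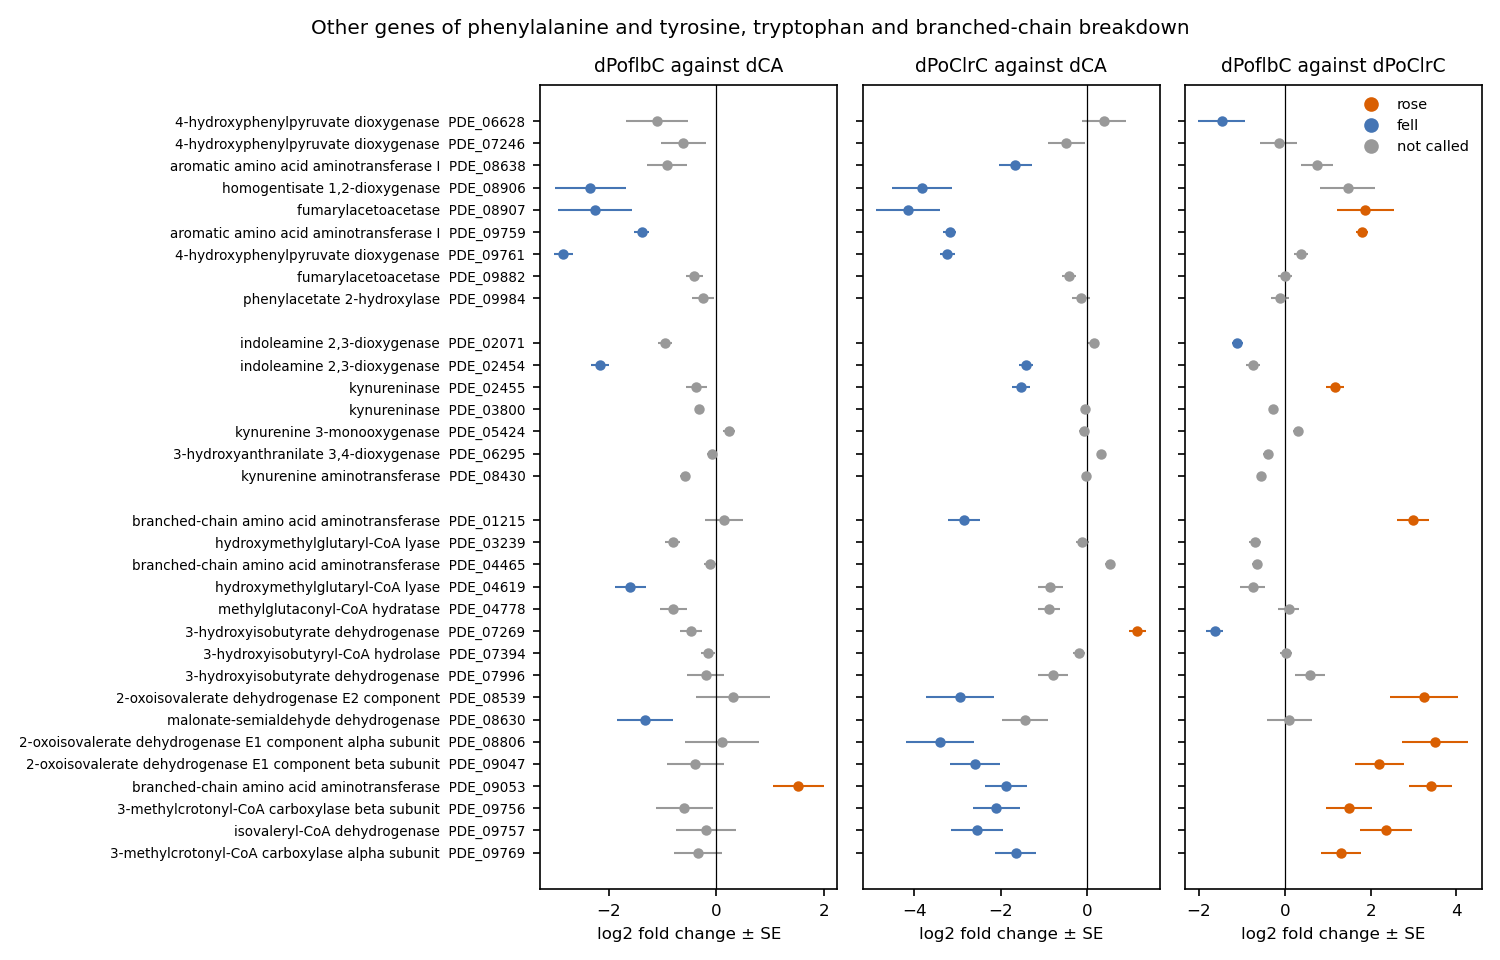
Fitted log2 fold change (points) with its SE (bars) in each of the 3 comparisons for the tested genes other than the members of phenylalanine and tyrosine, tryptophan and branched-chain amino acid breakdown. Of the genes shown, 5 of the aromatic, 2 of the tryptophan and 8 of the branched-chain group fell in dPoClrC against dCA, where PDE_07269 rose.

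Among 28 genes for the breakdown of other amino acids, 27 were tested. In dPoflbC against dCA 1 rose and 2 fell, where 11.4% of all genes tested rose and 15.8% fell. Without dCA replicate 2 that split was 3 risen and 1 fallen. In dPoClrC against dCA 7 fell (5 without dCA replicate 2), where 7.35% of all genes fell. In dPoflbC against dPoClrC 6 rose and 2 fell, where 9.05% of all genes rose and 13.6% fell. Arginase PDE_04772, which splits arginine, averaged 101 ± 16.1 RPKM in dPoflbC, 21.3 ± 1.79 in dPoClrC and 99.1 ± 30.2 in dCA. It fell by 2.58 in dPoClrC against dCA (edgeR adjusted p = 1.83e-04). Cystathionine gamma-lyase PDE_00928, of sulfur amino acid metabolism, averaged 356 ± 64.4, 25.0 ± 3.07 and 141 ± 31.5 RPKM and fell by 2.85 there (adjusted p = 5.71e-05). Glycine dehydrogenase PDE_01384 fell by 2.70 (adjusted p = 0.00339). Cysteine dioxygenase PDE_04527 rose in dPoflbC against dPoClrC (3.75, adjusted p = 0.00241), whereas the glutamate decarboxylase gene PDE_08111 fell (-2.15, adjusted p = 6.49e-06).

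Of the synthesis genes for aromatic and branched-chain amino acids, 34 of 35 were tested, and in dPoClrC against dCA 3 rose and 5 fell, with a median log2 fold change of -0.07. In dPoflbC against dCA 5 rose and 7 fell, and in dPoflbC against dPoClrC 7 rose and 5 fell. Without scaling these became 12 risen and 4 fallen, and 11 and 4. Of all genes tested, 5.69% rose and 7.35% fell in dPoClrC against dCA. In dPoflbC against dCA 11.4% rose and 15.8% fell, and in dPoflbC against dPoClrC 9.05% rose and 13.6% fell. Ketol-acid reductoisomerase PDE_02091, of branched-chain amino acid synthesis, was highest in dPoflbC, as PDE_03805 was, at 430.0 ± 32.5 RPKM against 146 ± 16.2 in dPoClrC and 37.6 ± 12.9 in dCA. It rose by 2.96 in dPoflbC against dCA (edgeR adjusted p = 5.08e-07), and by 1.68 in dPoClrC against dCA (adjusted p = 9.11e-05), where PDE_03805 had -1.21. Among the 7 that fell in dPoflbC against dCA were anthranilate phosphoribosyltransferase PDE_09404 (-2.29, adjusted p = 2.87e-07) and 3-isopropylmalate dehydrogenase PDE_08096 (-1.47, adjusted p = 2.18e-05). The call of PDE_08096 ended without scaling (-0.91) and with limma on RPKM (-0.86). A difference between the lists of synthesis and breakdown genes was not tested.

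The likeness of profiles was measured as the root mean square difference, over the 9 libraries, of log2 scaled levels centred on each gene's own mean, so that a smaller value means a closer profile. PDE_08904 and PDE_03805 differed by 0.92, PDE_04228 and PDE_08908 by 0.73, and PDE_05907 and PDE_08908 by 0.84. PDE_08904 and PDE_04228, which both lead to homogentisate, differed by 2.91, the widest gap among the members, and PDE_08906 and PDE_08907 by 0.19. The median difference of all genes tested from a member ran from 1.96 for PDE_03805 to 2.74 for PDE_08904. The values come from the same libraries that were used to pick the members and are a description.

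Closest to PDE_03805 was PDE_08905, the gene numbered next to PDE_08904, at 0.40, followed by PDE_05440 (0.56) and PDE_08104 (0.57), none of them annotated. PDE_05440 was also the third closest to PDE_08904 (0.77), after PDE_07576 (0.51) and PDE_01157 (0.72), which lack an annotation too. PDE_07576 averaged 601 ± 69.7 RPKM in dPoflbC, 9.80 ± 1.07 in dPoClrC and 13.4 ± 3.69 in dCA, the order of PDE_08904. The 3 closest to PDE_04228 were PDE_01187 (0.62), fumarylacetoacetase PDE_08907 (0.67) and PDE_01191 (0.72). The 3 closest to PDE_05907 were PDE_08813 (0.52), the keto acid dehydrogenase subunit PDE_08806 (0.60) and PDE_04563 (0.65). Outside the members, PDE_08908 was closest to PDE_01796 (0.74), annotated as a cell wall integrity and stress response component. Then came PDE_00760 (0.77) and PDE_06722 (0.78). The members were left out of these rankings, and PDE_04228, at 0.73, was slightly closer to PDE_08908 than PDE_01796 was.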

How the data were processed

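RNA sequencing measured transcripts in 9 libraries of mycelia, with CASAVA 1.8 named in the submitters' processing notes. The aligner, read counter and genome build were not given in the sources used here. Deposited values are read counts per gene, which the table's header calls unique, and RPKM computed by the authors from those counts, gene lengths and library totals; recomputed RPKM differed by at most 4.7e-11. A dash was read as 0 reads, and 9 columns of coverage were left out. The counting is not stated to use strand.

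Read counts were fitted in edgeR 4.0.16 (R 4.3.3) after filterByExpr (8681 of 9786 genes kept) and TMM scaling, in 1 quasi-likelihood fit of all 9 libraries with 1 mean per strain, since the table held counts. Calls needed a Benjamini-Hochberg adjusted p under 0.05 over all genes tested together with a log2 fold change of at least 1 in size; "rose" and "fell" mean called. Tests were two-sided, SE is the size of the log2 fold change over the root of F, and the fit was tested on simulated data. In a single library, a count of 0 allows up to 3 reads, for counting error only.

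The members and gene lists were chosen with earlier results of these data known. Lists were search words on names, and named genes were the members, all genes of the aromatic, tryptophan and branched-chain lists, called genes of the other lists, neighbours within 5 locus numbers that were called or annotated, and the 3 closest profiles of each member; of the other lists and neighbours, examples are named. The words also drew in acetylornithine aminotransferase and urease accessory proteins. Of these, PDE_03241 (acetylornithine aminotransferase) and PDE_07740 (urease accessory protein) are counted among the breakdown genes that fell in dPoClrC against dCA. PDE_03241 is also counted among those that rose in dPoflbC against dPoClrC. Alternatives were DESeq2 1.42.0 and its size factors, no scaling, no filter, limma 3.58.1, a replicate block and leaving out each library.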

Additional observations from a re-analysis of the deposited data

How the results depend on the processing

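The number of other breakdown genes called in dPoflbC against dCA was 11 and ran from 6 to 16 when 1 library was left out, with 6, all fallen, without dPoflbC replicate 3; the cause was not tested. Counts of genes called stayed within 1.5 times under each alternative run otherwise, at 2098 to 3029 of 2356 for dPoflbC against dCA. Without scaling the split of those calls moved from 988 risen and 1368 fallen to 2272 and 757, and the median of all genes from -0.07 to 0.51; in dPoClrC against dCA it moved from 494 and 638 to 887 and 454 (median 0.30) and in dPoflbC against dPoClrC from 786 and 1179 to 1289 and 876 (median 0.29). Same-numbered libraries correlated at -0.18 to 0.12 in their deviations from strain means, so the numbers were not taken as pairs; with the replicate block 2332, 1096 and 1966 genes were called in the 3 comparisons, and 10, 22 and 20 of the other breakdown genes. Of 113 calls of genes in the breakdown, synthesis and neighbour lists, 70 held under every alternative run and 0 reversed. Among members, PDE_08908 and PDE_05907 changed sign in dPoflbC against dCA under 2 of 17 alternatives each. Depth limits PDE_08904 most, with 9 reads in its lowest library.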
